A study of Bos taurus with 18 samples.

Results

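The comparison set day 7 of a cycle with a progestin injection against day 7 of an untreated cycle in the same 6 Holstein cows, and asked what both progestin formulations had in common. Its members are 12 of the 18 libraries of the series, namely the day 7 control and the day 7 treated library of each cow, paired by the animal letter. Cows A, B and C received a depot formulation of 100 mg 17-hydroxyprogesterone caproate (17-OHPC) with 10 mg progesterone (P4) on day 4 of the treated cycle, and are called the 17-OHPC/P4 arm. For cows D, E and F the dose was 100 mg of P4, also given on day 4, and they are called the P4 arm. All 6 cows were synchronized with Ovsynch in both cycles, and day 0 was the day of estrus. RNA came from a cytobrush rotated inside the uterine horn next to the ovary that bore the corpus luteum. The labels name no vehicle injection for the control cycle. The control cycle always came first, and its day 7 brushing followed a day 4 brushing, while the labels give only a day 7 sample for the treated cycle. Treatment, cycle order and the earlier brushing therefore cannot be told apart.

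Progesterone is made by the corpus luteum after ovulation and acts in the uterus through its nuclear receptor PGR, a transcription factor. In the early luteal phase it prepares the endometrium for the embryo, and it is known to shape both the secretions of the epithelium and the immune cells of the mucosa. Macrophages and other phagocytes live in the endometrium and take up pathogens and debris, while T and NK cells form most of the lymphocytes near its epithelium. 17-OHPC is an esterified progestin that is released slowly from an oily depot.

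The brushed material carried epithelial RNA in all 12 libraries. EPCAM, an epithelial adhesion molecule, lay between 382.9 and 592.1 CPM (counts scaled to a common library size) in the control libraries and between 358.6 and 638.8 CPM in the treated ones. The stromal marker sum ran from 206.1 to 6166 CPM in the control and from 431.2 to 4129 CPM in the treated libraries, highest in cows C and D in the control cycle. Red blood cell markers summed to 4184 CPM in the control library of cow C and 365 CPM in its treated library, against 7.38 to 12.36 CPM in the other libraries. Total counts ranged from 30784249 to 39463921 in the control and from 30112365 to 39010196 in the treated libraries, and mitochondrially encoded genes took 5.55% to 8.89% and 6.21% to 12.38% of them. In bulk RNA, fewer cells of a type and less RNA per cell cannot be told apart.

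The genes with the smallest p-values were lower after progestin, but no gene passed the test. Of 19638 genes tested with edgeR's quasi-likelihood test with the cow as a block, 0 were called higher and 0 lower at an adjusted p under 0.05 (background 0% each), and the smallest adjusted p was 0.662. At an unadjusted p under 0.05 there were 743 lower (3.78%) and 573 higher (2.92%) genes. All of the 50 genes with the smallest p were lower, and the first higher gene, TBCEL, stood at rank 52, while over all genes tested 50.4% had a negative log2 difference. A further test on the same model, DESeq2, called 56 genes lower (0.285%) and 0 higher, and limma voom called 0. Of those 56 genes, 45 were lower in 6 of 6 cows and all 56 had a negative difference in each arm. The DESeq2 count ran from 17 without cow A to 463 without cow D, with 23 without C, 85 without F, 103 without E and 169 without B, and it was 2 (ALDOC and OSTF1) with no block. Of the 56 genes, 12 were still called without cow A, 16 without C, 29 without E, 34 without F, 40 without B and 52 without D.

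FCGR2B, an inhibitory Fc receptor for IgG on macrophages and B cells, had the smallest p. Its level was 5.17 CPM at the lowest, 27.2 at the median and 36.1 at the highest in the 6 control libraries, and 0.704, 3.35 and 7.83 CPM in the treated ones. The groups overlapped only through cow A, whose control library held the 5.17 CPM. Within cows the log2 difference ran from -5.13 in cow F to -1.69 in cow C, and the shared log2 difference was -3.03 ± 0.46 (SE, n = 6 cows, edgeR adjusted p = 0.662, DESeq2 adjusted p = 4.17e-09). By arm it was -2.30 ± 0.62 with 17-OHPC/P4 and -3.76 ± 0.67 with P4. Without cow D, edgeR called 5 genes lower, namely FCGR2B (adjusted p = 0.023), CD44, RUNX1, LITAF and PYCARD (adjusted p = 0.0464 each).

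CD14, the co-receptor through which monocytes and macrophages sense bacterial lipopolysaccharide, lay at 18.2, 60.5 and 121 CPM (lowest, median, highest) in the control libraries and at 3.17, 9.66 and 22.3 CPM in the treated ones. It was lower in 6 of 6 cows, with a shared log2 difference of -2.35 ± 0.44 (SE, edgeR adjusted p = 0.691). C5AR1, the receptor for the complement fragment C5a on phagocytes, went from 18.1, 31.4 and 82.9 CPM to 2.91, 8.41 and 33.7 CPM. The groups of both genes overlapped, but both genes were lower in every cow, and the smallest difference was in cow B for both, -1.04 for CD14 and -1.14 for C5AR1. C5AR1 had a shared log2 difference of -1.97 ± 0.36 (edgeR adjusted p = 0.662).

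CD44, a receptor for hyaluronan on leukocytes and epithelial cells, stood at 70.8, 152 and 240 CPM in the control and 13.6, 47.7 and 94.4 CPM in the treated libraries. The shared log2 difference of CD44 was -1.75 ± 0.30 (SE), and both arms were close in size, -1.69 ± 0.42 and -1.82 ± 0.43. RNASET2, a lysosomal ribonuclease, had a shared log2 difference of -0.98 ± 0.17, from levels of 27.9, 49.1 and 62.2 CPM to 8.99, 27.4 and 33.0 CPM. IL4R, the interleukin 4 receptor chain, was the last of the 8 lower genes taken by the naming rule, at -0.50 ± 0.10, with only -0.05 in cow D. By arm IL4R differed by -0.79 ± 0.14 with 17-OHPC/P4 and by -0.21 ± 0.14 with P4 (edgeR p of the arm difference 0.0132 unadjusted and 1 adjusted). None of these 3 passed in edgeR, with adjusted p from 0.662 to 0.707.

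CXCL2, a chemokine that attracts neutrophils, ran from 1.10 to 29.3 CPM (median 11.2) in the control and from 0.384 to 10.4 CPM (median 2.38) in the treated libraries. Although levels differed widely between cows, each cow was lower after progestin, by -1.40 in cow A up to -2.75 in cow C on the log2 scale. The shared log2 difference was -2.03 ± 0.37 (SE, edgeR adjusted p = 0.662). ALDOC, the aldolase C isoform of glycolysis, was one of 8 genes (0.0407% of those tested) whose treated levels all lay below the control levels: 7.74 to 13.3 CPM in the control and 3.67 to 5.43 CPM in the treated libraries. Its shared log2 difference was -1.25 ± 0.23. The other 7 were FXYD5, OSTF1, bta-mir-2285t, GLRX2, IFNGR2, SLC35E4 and ENSBTAG00000073656, and they were named because their groups did not overlap. IFNGR2, a chain of the interferon gamma receptor, lay between 64.0 and 75.8 CPM in the control and between 37.0 and 60.3 CPM in the treated libraries.

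Further genes among the 56 DESeq2 calls are described here for their known roles, and those outside the naming rule were picked after their values were seen. The antigen presentation list had 1 such call among 16 members, CTSS, with 13 members negative, 0 lower in 6 of 6 cows and a median of -0.31. CTSS, the cathepsin that trims the invariant chain of MHC class II, went from 160.7, 275.7 and 428.5 CPM (lowest, median, highest) in the control to 48.2, 138 and 211.5 CPM in the treated libraries. It was lower in 5 of 6 cows, the exception being cow B at 0.15, and the shared log2 difference was -1.11 ± 0.26 (SE, DESeq2 adjusted p = 0.0187, edgeR 0.707). IFI30, a lysosomal thiol reductase of antigen-presenting cells, differed by -0.93 ± 0.21 and was lower in 6 of 6 cows. FTH1, the heavy chain of ferritin, ran from 1004 to 1658 CPM in the control and from 322 to 1335 CPM in the treated libraries, a log2 difference of -0.96 ± 0.22, or -0.62 ± 0.31 with 17-OHPC/P4 and -1.31 ± 0.32 with P4. LRP1, an endocytic receptor, differed by -0.96 ± 0.20 with nearly the same value in each arm, -0.97 and -0.95.

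SIRPA, LYN, S1PR2 and MAPKAPK3 were also among those calls. SIRPA, the receptor for the "do not eat me" protein CD47 on myeloid cells, went from 67.9, 103.5 and 130 CPM to 20.3, 46.9 and 86.4 CPM, and LYN, a Src family kinase, from 47.4, 58.6 and 60.8 CPM to 23.2, 37.6 and 47.7 CPM. Their log2 differences were -1.06 ± 0.26 and -0.65 ± 0.16, and both were lower in 6 of 6 cows. S1PR2, a receptor for sphingosine 1-phosphate, differed by -0.72 ± 0.16, and MAPKAPK3, a kinase downstream of p38, by -0.53 ± 0.11. The arms lay close together in both, at -0.71 and -0.73 for S1PR2 and at -0.57 and -0.49 for MAPKAPK3.

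TCN1, BPI, CHI3L1, KCNN4 and EDNRB were called by DESeq2 as well. TCN1, a vitamin B12 binding protein of granulocytes and glands, went from 8.78, 41.4 and 66.0 CPM to 1.13, 7.85 and 16.6 CPM, a log2 difference of -2.47 ± 0.50 with 6 of 6 cows lower. BPI, a bactericidal protein of neutrophil granules that binds lipopolysaccharide, differed by -2.25 ± 0.61, and CHI3L1, a chitinase-like protein of macrophages and neutrophils, by -1.92 ± 0.52, with 0.54 in cow B. KCNN4, a calcium-activated potassium channel of leukocytes and epithelia, differed by -2.59 ± 0.65, and EDNRB, an endothelin receptor, by -2.14 ± 0.53. By arm KCNN4 differed by -1.51 ± 0.88 with 17-OHPC/P4 and by -3.68 ± 0.96 with P4. In edgeR the adjusted p of each gene of these 3 paragraphs was 0.707.

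**Figure D1:**
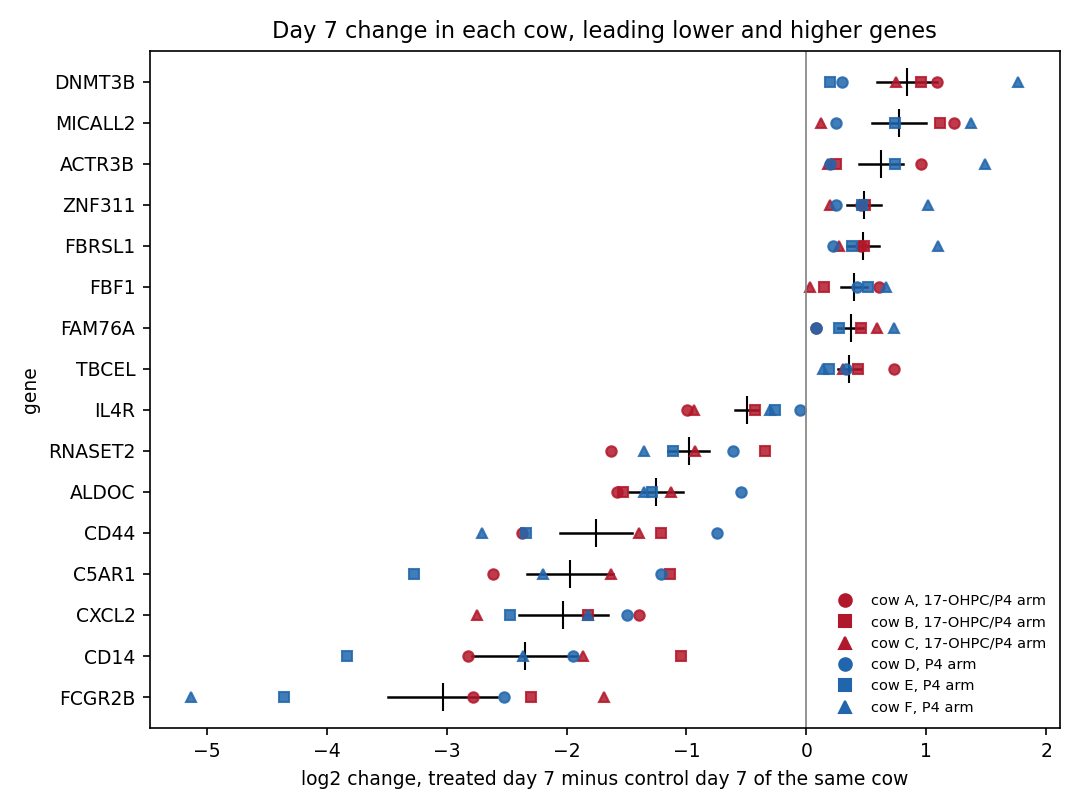
Log2 difference (treated day 7 minus control day 7) for each of 6 cows, with 1 row per gene, for the 8 lower and 8 higher genes with a unique symbol, the same direction in 6 of 6 cows and the smallest p. Each symbol is 1 cow (17-OHPC/P4 arm red, P4 arm blue), and the black tick and bar are the shared difference and its SE. FCGR2B spans -5.13 to -1.69, and the higher genes all lie between 0 and 2.

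The 8 higher genes taken by the naming rule had log2 differences of 0.36 to 0.84. TBCEL, a relative of the tubulin chaperone cofactor E, led them with 60.5, 67.2 and 82.0 CPM in the control and 71.1, 84.8 and 117 CPM in the treated libraries, a log2 difference of 0.36 ± 0.10 (SE, edgeR adjusted p = 0.707). DNMT3B, a de novo DNA methyltransferase, had the largest difference of the 8 higher genes taken by the rule, at 0.84 ± 0.25, with 20.1 CPM at the control median and 34.5 CPM at the treated median. MICALL2, which takes part in recycling of tight junction proteins, followed at 0.77 ± 0.23, and the other 5 (FBF1, FAM76A, FBRSL1, ACTR3B and ZNF311) lay between 0.37 and 0.62. None passed in edgeR or DESeq2. In 9 genes (0.0458%) the treated levels all lay above the control levels, and 6 of them have symbols: POLR3A, ZMYM3, PER1, TBC1D30, VIPR2 and SSRP1. PER1, a circadian clock repressor that also responds to glucocorticoids, was at 86.8 to 120 CPM in the control and at 125 to 207 CPM in the treated libraries (log2 difference 0.44 ± 0.20).

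Among the 40 gene lists, the macrophage and dendritic cell markers had a median log2 difference of -0.95, against a median of -0.003 over all genes tested. Of 17 members tested, 0 were called by edgeR, 16 had a negative difference and 3 were lower in 6 of 6 cows (CD14, CD163 and LYVE1), where 2.18% of all genes were lower in 6 of 6 and 2.35% higher. CD163, a scavenger receptor for haptoglobin-hemoglobin on macrophages, ran from 3.44 to 45.4 CPM (median 11.4) in the control and from 0.256 to 10.6 CPM (median 2.29) in the treated libraries, with a log2 difference of -2.59 ± 0.71 (SE). The summed level of the list was lower in 5 of 6 cows. It was 142, 428, 474, 495 and 141 CPM in the control and 47.5, 212, 170, 184 and 73.2 CPM in the treated libraries of cows A, C, D, E and F. Cow B went the other way, from 147 to 188 CPM, and its median over the members was 0.41. The complement component genes C1QA and C1QB, also made by macrophages, showed small differences of -0.22 ± 0.39 and -0.21 ± 0.36.

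The mucosal defence list had a negative difference in 21 of 21 members, with a median of -0.73. In it 1 member, S100A12, was lower in 6 of 6 cows. Over all genes tested, 2.18% were lower and 2.35% higher in 6 of 6 cows. The summed level of the mucosal defence list was lower in 5 of 6 cows. In cow D the sum went from 4257 CPM in the control to 12710 CPM in the treated library, and the median over the members was 0.15. Complement genes were negative in 19 of 21 members, with a median of -0.52 and 1 member, C5AR1, lower in 6 of 6 cows. The neutrophil list had a median of -1.41 over 12 members, with S100A12 and TREM1 lower in 6 of 6 cows, while the defining receptors CXCR1, CXCR2 and CSF3R had differences of 0.19 ± 0.62, 0.08 ± 0.63 and 0.42 ± 0.85 and were lower in 3 of 6 cows each. S100A12, a calcium-binding alarmin of granulocytes, ran from 39.7 to 348 CPM (median 114) in the control and from 0.576 to 77.2 CPM (median 19.7) in the treated libraries. T and NK cell markers had a median of 0.07 over 28 members, of which 0 were lower and 1 was higher in 6 of 6 cows. That member, ENSBTAG00000010057, carries a symbol shared with another row, GZMB, and differed by 1.52 ± 0.71. PTPRC, the CD45 antigen of all leukocytes, lay between 36.6 and 72.1 CPM in the control and between 33.6 and 62.4 CPM in the treated libraries, with a log2 difference of -0.09 ± 0.22. CD3E, a chain of the T cell receptor complex, differed by -0.02 ± 0.14.

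**Figure D2:**
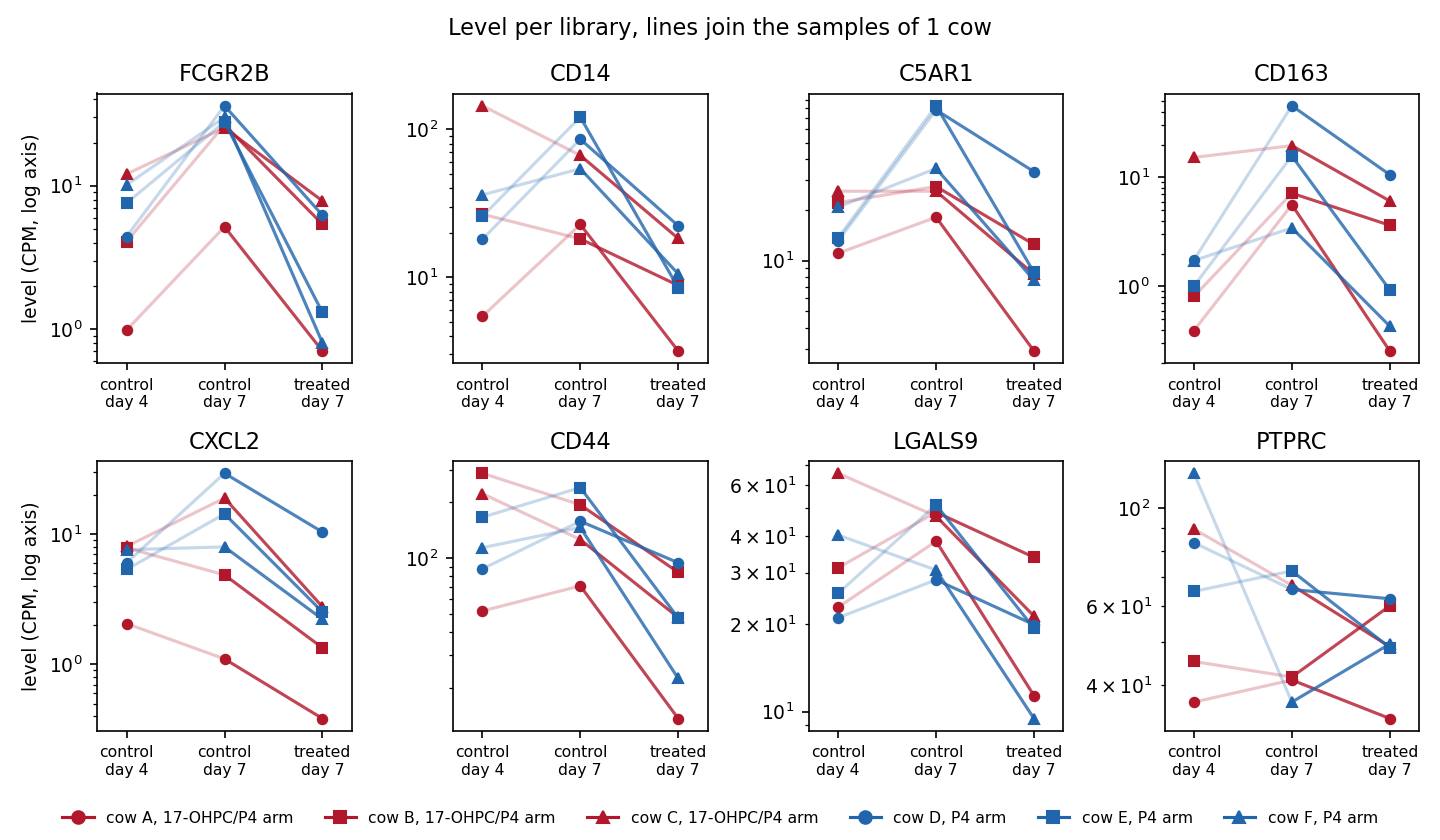
Level in CPM (log axis) of 8 genes in the control day 4, control day 7 and treated day 7 library of each cow. Lines join the samples of 1 cow, red for the 17-OHPC/P4 arm and blue for the P4 arm. FCGR2B, CD14, C5AR1, CD163, CXCL2, CD44 and LGALS9 are lower in every cow on treated day 7 than on control day 7, and PTPRC crosses in both directions.

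The day 4 control libraries show where these genes stood earlier in the untreated cycle. The treated cycle has no day 4 library, so its level before the injection is not known. FCGR2B rose from day 4 to day 7 of the control cycle, by 2.01 on the log2 scale (edgeR adjusted p = 0.0119), and C5AR1 (1.13, adjusted p = 0.0492) and CD163 (2.65, adjusted p = 0.0328) rose as well, where 9.34% of all genes rose and 7.32% fell. CD14 (0.86, adjusted p = 0.196), CXCL2 (0.53, adjusted p = 0.353) and CD44 (0.12, adjusted p = 0.804) did not pass. Both differences use the same control day 7 libraries, so they are given side by side and not as separate support. The day 4 level of FCGR2B was 0.985 CPM at the lowest, 5.996 at the median and 12.1 at the highest.

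Inflammatory genes were represented by 31 members, of which 5 were lower in 6 of 6 cows (2.18% over all genes): CXCL2, CXCL5, TLR4, IL18 and GRO1. TLR4, the lipopolysaccharide receptor that works with CD14, was at 25.1, 31.4 and 54.4 CPM in the control and 7.61, 21.2 and 29.4 CPM in the treated libraries, a difference of -0.88 ± 0.20 (SE). CXCL5, a further neutrophil chemokine, differed by -2.04 ± 0.46. The list's median was -0.40, and 9 of its 31 members had an unadjusted p under 0.05 in the lower direction and 0 in the higher. Over all genes the shares were 3.78% and 2.92%. The summed level of the inflammatory list was lower in only 3 of 6 cows, and cow B had a positive median over the members, 0.21.

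Interferon-stimulated genes, which cells switch on in answer to interferons, held 9 of 31 members that were lower in 6 of 6 cows, the most of any list. Over all genes tested the share was 2.18%. The 9 members were IFIT5, UBA7, IFI44, ZBP1, IFI27, USP18, IFI44L, ISG15 and IRF9. ISG15, a ubiquitin-like modifier, ran from 3.50 to 29.7 CPM (median 16.2) in the control and from 2.08 to 10.0 CPM (median 3.56) in the treated libraries, and its log2 difference was -1.78 ± 0.81. IFIT5 had a small difference, -0.36 ± 0.10. Cow A stood lowest: its median over the members was -2.0, against -0.76 to -0.01 in the other 5 cows, and its summed level was 1984 CPM in the control library and 689 CPM in the treated library. The summed level was lower in 5 of 6 cows, and in cow B it went from 947.1 CPM in the control to 1045 CPM in the treated library.

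Hypoxia and glycolysis genes had 7 of 29 members lower in 6 of 6 cows (2.18% over all genes), though the median of the whole list was only -0.08. Besides ALDOC these were EGLN3, PFKP, NDRG1, ADM, PGK1 and PGAM1. EGLN3, an oxygen-dependent prolyl hydroxylase that is itself induced in low oxygen, ran from 6.93 to 25.4 CPM in the control and from 1.66 to 14.6 CPM in the treated libraries, a difference of -1.25 ± 0.29. PGK1, a glycolytic kinase, differed by -0.41 ± 0.17, and by -0.007 in the cow with the smallest difference.

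Matrix remodelling genes had 4 of 30 members lower in 6 of 6 cows (2.18% over all genes): the proteases MMP3, MMP13 and MMP19 and the urokinase receptor PLAUR. MMP19 ran from 2.60 to 86.3 CPM (median 24.7) in the control and from 1.47 to 11.97 CPM (median 4.10) in the treated libraries, and its log2 difference was -2.36 ± 0.77 (SE). TIMP1, a metalloprotease inhibitor, was lower in 5 of 6 cows at -0.996 ± 0.290, and FN1, fibronectin, at -1.26 ± 0.39, with a value of 0.97 in cow D.

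**Figure D3:**
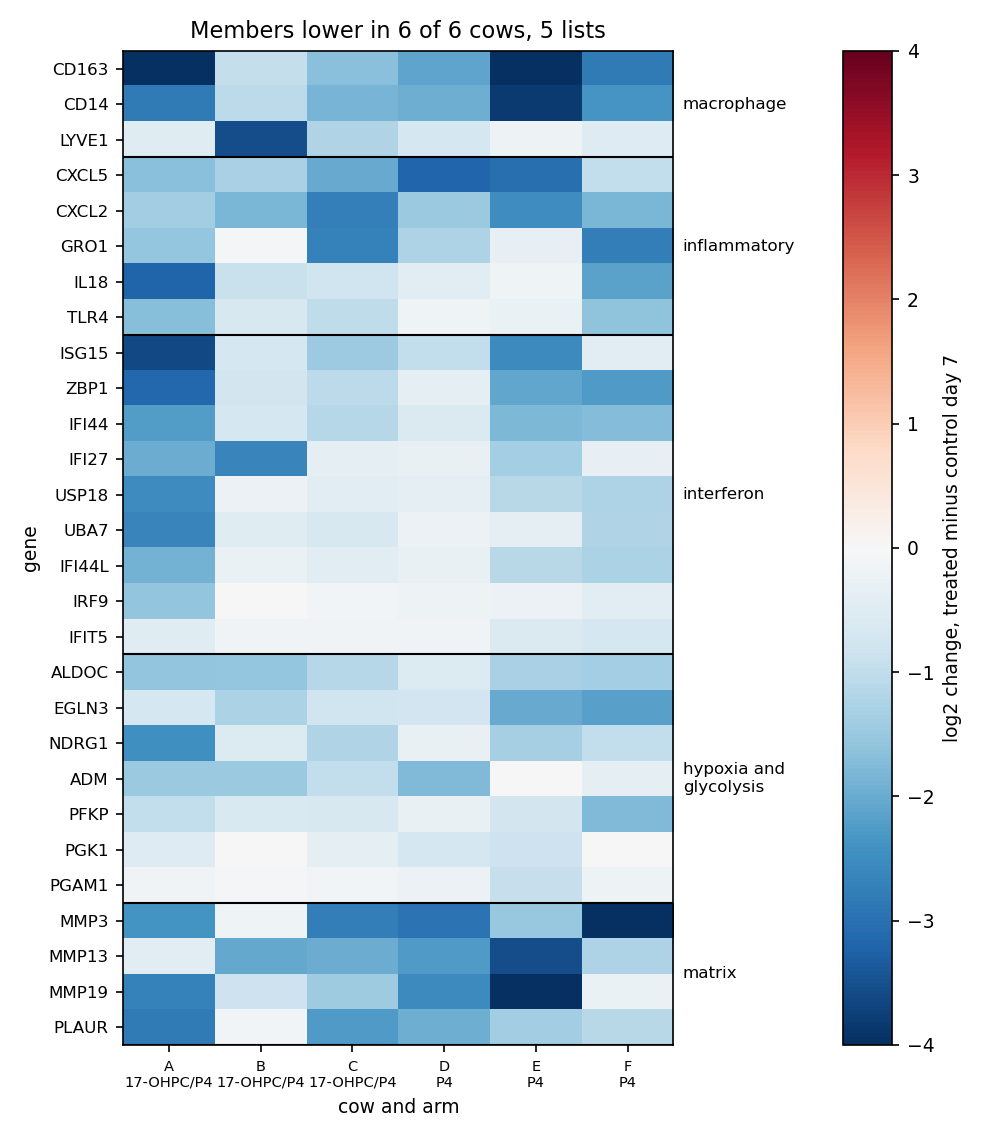
Heat map of the log2 difference (treated day 7 minus control day 7) in each cow for the 28 members of 5 gene lists that were lower in 6 of 6 cows. Columns are cows with their arm, rows are genes, and blue is lower after progestin, with values beyond 4 drawn at 4. CD163, MMP3 and MMP19 reach the deepest blue in single cows, and IRF9, PGK1 and PGAM1 stay near 0 in several.

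PGR, the progesterone receptor gene, was at 26.3, 38.2 and 52.7 CPM in the control and at 31.4, 42.2 and 81.4 CPM in the treated libraries, with a difference of 0.27 ± 0.18 (SE). By arm its difference was 0.61 ± 0.25 with 17-OHPC/P4 and -0.07 ± 0.25 with P4. ESR1, the estrogen receptor alpha gene, differed by -0.11 ± 0.21, OXTR, the oxytocin receptor, by -0.40 ± 0.46, and FKBP5, a co-chaperone induced by progestins and glucocorticoids, by 0.35 ± 0.29. The list of early luteal progesterone-responsive genes had a median of -0.37 over 40 members, of which 29 had a negative difference. At an unadjusted p under 0.05, 3 were lower and 1 higher, where 3.78% and 2.92% of all genes were. In that list 1 of 40 members, LGALS9, a galectin, was lower in 6 of 6 cows, where 2.18% of all genes were. LGALS9 stood at 28.3, 42.6 and 51.2 CPM in the control and at 9.48, 19.6 and 33.9 CPM in the treated libraries (-1.13 ± 0.29). DGAT2, the last enzyme of triglyceride synthesis, differed by -0.44 ± 0.40, and TINAGL1, a matrix glycoprotein, by -2.06 ± 1.11, with values from -6.01 in cow A to 1.07 in cow E.

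The prostaglandin transporter SLCO2A1 was lower in 6 of 6 cows, from 2.77 to 4.84 CPM in the control to 0.192 to 3.52 CPM in the treated libraries. Its log2 difference was -1.64 ± 0.38 (SE, edgeR adjusted p = 0.707). It was the only 1 of 20 tested members of the prostaglandin and oxytocin list lower in 6 of 6 cows. In that list 11 members were negative and the median was -0.06. Over all genes tested, 2.18% were lower and 2.35% higher in 6 of 6 cows, the background for each such count below. PTGS2, the inducible cyclooxygenase, ran from -4.69 in cow D to 2.39 in cow E. In the list that holds the hedgehog pathway, by which epithelium signals to stroma, PTCH1 and GLI3 were higher in 6 of 6 cows and BMP7 was lower in 6 of 6, by -0.86 ± 0.37. That list had 29 members tested, of which 15 had a negative difference, and a median of -0.02. PTCH1, the receptor and a target of the pathway, differed by 0.35 ± 0.12, from 19.4, 26.7 and 40.0 CPM to 26.9, 37.1 and 45.0 CPM, and the ligand IHH by -0.34 ± 0.48. SLC6A6, a taurine transporter, was higher in 6 of 6 cows, by 0.77 ± 0.29. It was the only 1 of 33 glucose and amino acid transporters to be so, near the 2.35% over all genes. KRT15 and KRT17, keratins of basal epithelial cells, were lower in 6 of 6 cows at -2.35 ± 0.48 and -1.81 ± 0.46, and KRT17 was named as a DESeq2 call. The squamous and basal epithelial list, which holds KRT15, had 6 of 10 members negative, a median of -0.32 and KRT15 alone lower in 6 of 6 cows.

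Several marker lists and the proliferation list varied between cows without a common direction. The ciliated cell markers had cow medians from -2.51 in cow F to 2.302 in cow D, and FOXJ1, the master regulator of motile cilia, differed by 0.08 ± 0.59. The general epithelial list stayed near 0, with cow medians from -0.34 to 0.46, and KRT8 differed by -0.26 ± 0.21. Stromal medians ran from -0.81 in cow D to 1.10 in cow F. Proliferation genes had 31 of 35 members with a negative difference and a median of -0.59, but cow F alone had a median of -2.52 and the other cows lay between -0.61 and 0.23. MKI67, a marker of cycling cells, differed by -0.69 ± 0.62. Whether shifts in cell makeup took part in the differences above was not tested.

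**Figure D4:**
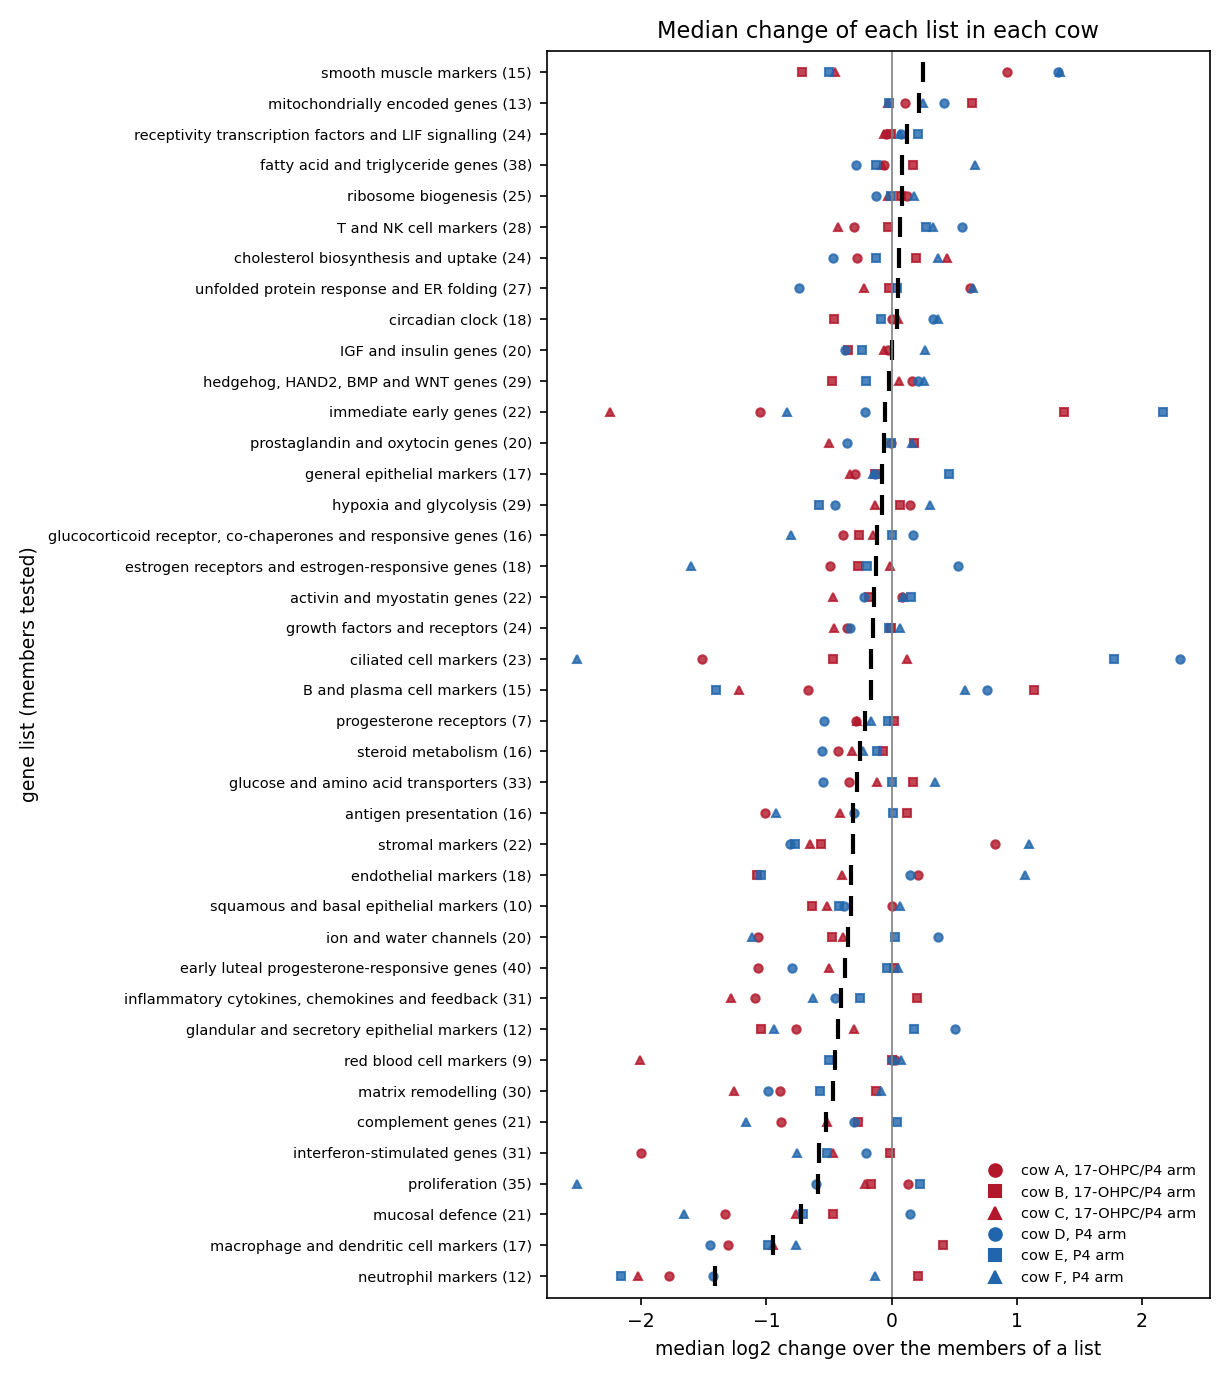
Median log2 difference (treated day 7 minus control day 7) over the tested members of each of 40 gene lists, 1 point per cow and a black tick for the median of the shared differences. Lists are ordered by that median, and the number of members tested is in brackets. Neutrophil and macrophage lists lie lowest, at -1.41 and -0.95, and the ciliated and immediate early lists spread widest between cows.

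The arms were then compared with each other, since a response shared by both should appear in each. In edgeR 0 genes were called in either arm, with smallest adjusted p of 0.87 for 17-OHPC/P4 and 0.991 for P4. At an unadjusted p under 0.05 there were 850 genes (4.33%) for 17-OHPC/P4 and 881 (4.49%) for P4, and 73 were in both, 8.59% of the first and 8.29% of the second. DESeq2 called 2 genes higher (0.0102%; ENSBTAG00000069567 and ENSBTAG00000000524) and 6 lower (0.0306%) with 17-OHPC/P4, and 3 higher (0.0153%; NR1I3, ZKSCAN8 and MED25) and 20 lower (0.102%) with P4. Of the lower calls, 4 of 6 and 12 of 20 were among the 56 shared calls, and 0 genes were in both. Some lower calls had extreme DESeq2 log2 estimates. With 17-OHPC/P4 these were TMPRSS11A (-35.8), MSMB (-21.6, also a shared call) and EPHA3 (-17.2), against -4.681, -7.374 and -4.245 in edgeR. With P4 they were EDARADD (-17.9), ENSBTAG00000020242 (-19.8) and ENSBTAG00000076366 (-17.8), against -4.559, -6.395 and -3.207 in edgeR. Such sizes cannot be taken at face value. Of the 73, 56 were lower in both arms (0.285% of all genes), 5 higher in both (0.0255%) and 12 opposite. The 56 included FCGR2B, CD14, CD44, C5AR1, CD163, TREM2, LTB4R, PLAUR and LGALS9. The shared difference is the mean of the 2 arms' differences, so the 56 are not separate support for it. TREM2, a lipid receptor of macrophages, differed by -1.44 and -1.66 in the arms, and LTB4R, the receptor for leukotriene B4 on leukocytes, by -1.46 and -1.72. The 5 higher in both were DMTF1, FAM76A, MICALL2, HRURF and ENSBTAG00000072908. DMTF1, a cyclin D-binding transcription factor, differed by 0.28 and 0.30.

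Over all 19638 genes the log2 differences of the arms had a Spearman correlation of 0.25 and a Pearson correlation of 0.27, and 59.77% had the same sign. Genes are not independent replicates, and the arms hold different cows and no common library. Between single cows the Spearman correlation of their differences ran from -0.338 to 0.315 within an arm and from -0.406 to 0.468 between arms. The ranges, over 15 pairs of cows, overlapped. Cow F alone of its arm had positive correlations with cows A, B and C (0.433, 0.468 and 0.292). Cows D and E had negative ones with each of A, B and C, from -0.406 to -0.022. With its own arm, cow F stood at -0.338 (D) and -0.156 (E). The test of the difference between the arms called 0 genes in edgeR (smallest adjusted p = 1, with 492 genes, 2.51%, at an unadjusted p under 0.05) and 2 higher (0.0102%) and 1 lower (0.00509%) in DESeq2. ENSBTAG00000000524 (edgeR log2 difference 0.643 with 17-OHPC/P4, -0.309 with P4) was called higher. So was EDARADD (-1.115 and -4.559), which was negative in both arms. TMPRSS11A (-4.681 and 0.294) was called lower. The DESeq2 estimates of the arm difference were 18.1 for EDARADD and -38.0 for TMPRSS11A, too extreme to be taken at face value. NR1I3, a nuclear receptor for xenobiotics and one of the 10 genes named from that test, differed by 2.73 ± 0.50 in the P4 arm and by -0.35 ± 0.46 in the 17-OHPC/P4 arm, at levels of 0.139 to 1.34 CPM over the 12 libraries.

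**Figure D5:**
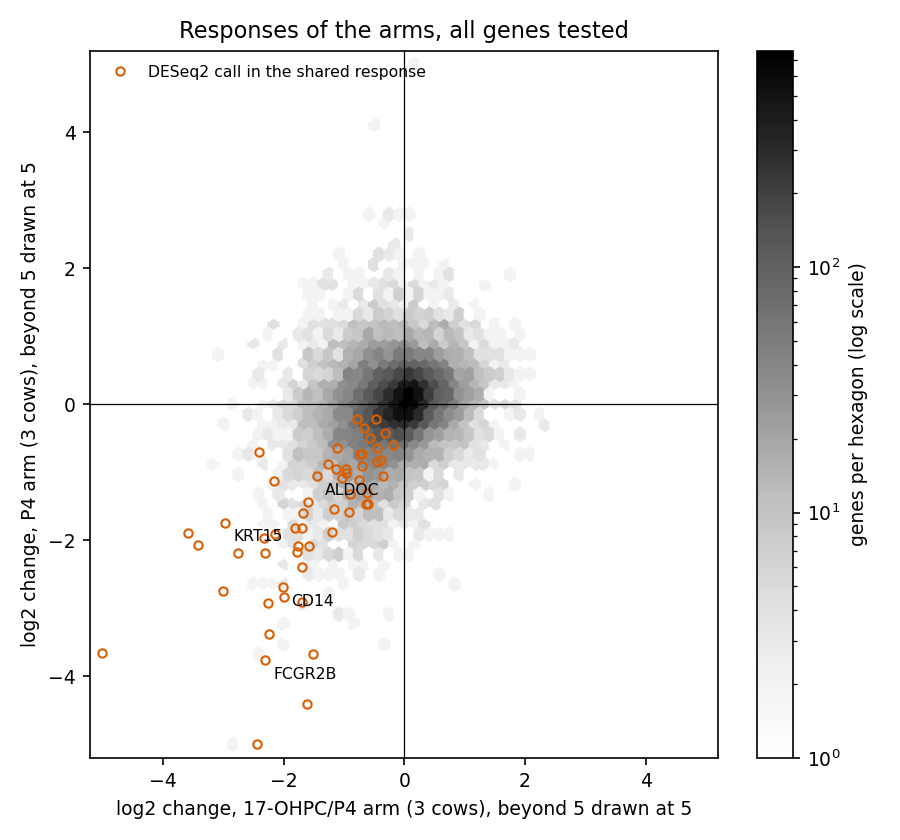
Log2 difference in the 17-OHPC/P4 arm (x axis) against that in the P4 arm (y axis) for the 19638 genes tested, as hexagons shaded by the number of genes, with values beyond 5 drawn at 5. Orange circles are the 56 genes that DESeq2 called lower in the shared response, all of which lie in the lower left quadrant. FCGR2B, CD14, KRT15 and ALDOC are labelled.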

How the data were processed

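Poly(A) RNA from brushed endometrium of 6 cows was sequenced, and the authors deposited raw read counts for each gene. DESeq2, featureCounts, STAR, FastQC and cutadapt stand in the submitters' processing notes, while versions, genome build, annotation and strand setting were not given in the sources read for this work. The table has 38001 gene rows, of which 17715 carry no symbol and 2007 carry a symbol that stands on another row, and such rows are named by identifier. Genes kept by filterByExpr (19638) were tested with edgeR 4.0.16 in R 4.3.3 (TMM, quasi-likelihood F test, robust dispersion) on all 18 libraries. The cow was a block (biological coefficient of variation 39.4%), with control and treated day 7 terms for each arm, and Benjamini-Hochberg adjusted p under 0.05 was called. The shared response is the mean of the arms' differences. Levels are CPM scaled by TMM, and differences within a cow are of log2 CPM with a prior count of 2. DESeq2 1.42.0 (2285 genes without adjusted p) and limma 3.58.1 were alternatives, with other normalizations, filters, libraries, no block and each cow left out. The scripts were tested on simulated counts.

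The labels say that a letter is the same cow in both cycles, which is why the cow is a block. Correlations of the deviations of same-lettered day 7 libraries from their group means were 0.594, 0.432, 0.718, 0.083, 0.357 and -0.071 for cows A to F. No 2 of the 66 pairs of day 7 libraries were identical. P-values rest on the spread left over all 18 libraries, day 4 included, once each cow's own level is taken out. That spread holds how far the changes differ between these cows, and it is moderated across genes. Some 75.04% to 80.58% (control) and 73.98% to 82.22% (treated) of low counts were even, so the number of independent fragments may lie below the count.

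Genes named are, for each direction, up to 8 with a unique symbol, the same direction in 6 of 6 cows and the smallest p, up to 2 by p from each of 40 lists, 15 genes taken in every case, 5 in each direction of the difference between the arms, and the DESeq2 calls, which were added after their values were seen. Genes named for groups that do not overlap, for small counts or as members lower in 6 of 6 cows were also chosen after their values were seen. The members and lists (896 symbols, 844 with a row, 2 by synonym) were chosen with earlier results of these data known. The table held 0 columns of other samples. No coordinates or sequences are given.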

Additional observations from a re-analysis of the deposited data

Results flagged for a closer look

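Among the differences of the named genes and list medians over 6 cows, 15 of 195 (7.7%) had 1 cow far from the other 5. The rule's nominal rate is about 1 in 20. These genes were selected and overlap with the lists, so the nominal rate is not the chance rate for this set. Cow F stood apart upward in FBRSL1 (1.10), ZNF311 (1.01) and PTCH1 (1.09), against 0.221 to 0.479, 0.2 to 0.487 and 0.109 to 0.268 in the other cows, and downward in ENSBTAG00000052092 (-4.79) and the proliferation list (-2.52). Cow D stood apart in FN1 (0.97), MYH11 (0.88), PECAM1 (-1.31) and EPB42 (3.09). Cow B stood apart in CTSS (0.15, against -1.74 to -1.17) and in the macrophage and dendritic cell list (0.41, against -1.45 to -0.76). Cow C stood apart in HBM (-3.23) and the red blood cell list (-2.01), cow A in the interferon-stimulated list (-2.0), and cow E in the general epithelial list (0.46). All values are log2 differences, treated minus control day 7.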

How the results depend on the processing

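Of 2292 recomputed differences of the 155 named genes, 2200 kept their direction and were again not called. Another 58 kept their direction and passed the threshold (56 of them in DESeq2), and 34 changed sign with an unadjusted p of at least 0.05 in both fits. Since the main fit called 0 genes, no call could be lost. The leading genes were also chosen for 1 direction in 6 of 6 cows, so a kept direction is no separate support for them. With 1 cow left out the sign changed for ESR1, OXTR, PTPRC, FOXJ1, LTF, PTGS2, MSTN and HAND2, among others. Of 600 recomputed list medians 6 moved by more than the SD between cows. Counts of genes depended more on the setting. For the shared response, edgeR called 0 lower genes, 56 with DESeq2 and 0 to 5 with a cow left out (5 without D). At an unadjusted p under 0.05, lower genes numbered 1183 with DESeq2 and 390 to 1376 with a cow left out. Higher genes numbered 332 with no replicate block and 253 to 1260 with a cow left out. DESeq2 called 2 higher and 6 lower genes with 17-OHPC/P4, 3 and 20 with P4, and 2 and 1 for the difference. Genes lower in each arm at an unadjusted p under 0.05 numbered 113 with DESeq2, 91 with limma voom, 11 with no replicate block and 23 to 174 with a cow left out. Genes higher in each arm numbered 12 on the 12 day 7 libraries, 3 with library totals, 2 with no replicate block, 2 with the stricter filter and 2 to 28 with a cow left out. Opposite genes numbered 6 on the 12 libraries, 25 with DESeq2, 4 with no replicate block, 7 with the stricter filter and 5 to 348 with a cow left out (348 without F). The shared DESeq2 count, added after seeing the data, was 2 lower with no replicate block, 120 lower and 6 higher on the 12 libraries, and 17 to 463 lower and 0 to 50 higher with a cow left out. The cause of these changes was not tested. Low levels such as those of NR1I3 rest on few reads.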

Other observations

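Several metabolic and housekeeping lists lay near the median of all genes. The median log2 difference was 0.08 for 38 fatty acid and triglyceride genes, 0.06 for 24 cholesterol genes, 0.05 for 27 unfolded protein response genes, 0.08 for 25 ribosome biogenesis genes and 0.01 for 20 IGF and insulin genes, and 0 of their members were called by edgeR. Of the 38 fatty acid and triglyceride genes, 1 was lower and 1 higher in 6 of 6 cows, near the 2.18% and 2.35% over all genes. LPIN2, a phosphatidate phosphatase, was lower in 6 of 6 cows (-0.60 ± 0.19, SE). PNPLA2, the lipase that starts triglyceride breakdown, was higher in 6 of 6 (0.39 ± 0.18). Its level ran from 70.3 to 98.6 CPM in the control and from 75.5 to 142.7 CPM in the treated libraries. SLC16A1, a lactate and pyruvate transporter, was lower in 6 of 6 cows, by -2.17 ± 0.90, where 2.18% of all genes were lower in 6 of 6. It was the only such member of the glucose and amino acid transporters, which had a median of -0.28 over 33 members. At an unadjusted p under 0.05, 6 of them were lower and 1 higher, where 3.78% and 2.92% of all genes were. Steroid metabolism genes had a median of -0.25 over 16 members and a negative median in 6 of 6 cows. In this list 3 members (HSD3B7, SRD5A1 and ENSBTAG00000076006) were lower in 6 of 6 cows, where 2.18% of all genes were. Among 13 mitochondrially encoded genes 2 had a negative difference, and the median was 0.22. Immediate early genes, which react within minutes to handling and stimulation, had cow medians from -2.25 in cow C to 2.17 in cow E, and their summed level was 6419 CPM in the control library of cow C and 4447 CPM in the treated library of cow E, against 814.5 to 2548 CPM in the other 10 libraries.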
